A study of Mus musculus with 2 samples.

Results

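The CXC chemokines described here were the 10 genes Cxcl1, Cxcl2, Cxcl3, Cxcl5, Cxcl9, Cxcl10, Cxcl12, Cxcl13, Cxcl14 and Cxcl16, picked by symbol from the 32285 genes of the count tables. They were measured by single-cell RNA sequencing in eYFP+ cells of perigonadal white adipose tissue (gWAT), sorted live from the stromovascular fraction, which is what remains once mature adipocytes have been floated off. Both groups were male Cyp1a1Cre x R26LSL-eYFP fate reporter mice, in which Cre driven from the Cyp1a1 promoter turns on eYFP permanently. An eYFP+ cell therefore marks past or present activity of Cyp1a1, which the aryl hydrocarbon receptor (AHR) turns on, and cells that never used the promoter are not sampled. The LFD group was fed a low-fat diet (D12450J, 10% fat) and the HFD group a high-fat diet (D12492, 60% fat), each for 12 weeks. All mice received the AHR ligand FICZ (10 mg/kg) 5 days before collection, so neither group is free of it. Each diet was represented by 1 library of pooled mice, and no label tied a cell to a mouse. The diets therefore have no replicate. Every interval below is a 95% interval for counting error only, and no difference between the diets was tested.

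CXC chemokines are small secreted or membrane-tethered proteins that direct the movement of leukocytes and other cells through G protein-coupled receptors. Cxcl1, Cxcl2, Cxcl3 and Cxcl5 carry the glutamate-leucine-arginine (ELR) motif, act on CXCR2 and draw neutrophils. Cxcl9 and Cxcl10 are induced by interferons and act on CXCR3 of T and NK cells. Cxcl12 binds CXCR4 and the scavenging receptor ACKR3, Cxcl13 brings CXCR5+ B cells together, Cxcl14 is made by resting epithelia and stroma, and Cxcl16 is a transmembrane ligand of CXCR6. In adipose tissue these ligands come mostly from stromal cells, endothelium and macrophages.

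Of the genes, 7 lie on chromosome 5 in the GRCm38 annotation (GENCODE M21), and all 10 are protein coding. The ELR genes form a cluster on the plus strand: Cxcl5 (ENSMUSG00000029371, chr5:90759360-90761624), Cxcl3 (ENSMUSG00000029379, chr5:90786103-90789600), Cxcl1 (ENSMUSG00000029380, chr5:90891241-90893115) and Cxcl2 (ENSMUSG00000058427, chr5:90903871-90905938). Cxcl1 and Cxcl2 are 10.8 kb apart. Cxcl9 (ENSMUSG00000029417, chr5:92321347-92328079) and Cxcl10 (ENSMUSG00000034855, chr5:92346638-92348889) are neighbours on the minus strand, 18.6 kb apart. Cxcl13 (ENSMUSG00000023078) is on the plus strand at chr5:95956951-95961068. The remaining genes are Cxcl12 (ENSMUSG00000061353, chr6:117168535-117181367, plus strand), Cxcl14 (ENSMUSG00000021508, chr13:56288643-56296551, minus strand) and Cxcl16 (ENSMUSG00000018920, chr11:70453983-70459984, minus strand).

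Promoter windows, each from 250 bases before to 50 bases after the annotated start, were taken from RefSeq on GRCm38.p6 and matched 8 of the 10 genes. Cxcl5 and Cxcl16 had no window. The windows of Cxcl1, Cxcl2 and Cxcl3 are shown because these neighbours share a stretch. Capitals mark the letters GGGAATTTC, an NF-kB type motif, searched on both strands. Only the 250 bases before the start are printed, chr5:90890995-90891244 for Cxcl1, chr5:90903649-90903898 for Cxcl2 and chr5:90785851-90786100 for Cxcl3, all on the plus strand.
Cxcl1: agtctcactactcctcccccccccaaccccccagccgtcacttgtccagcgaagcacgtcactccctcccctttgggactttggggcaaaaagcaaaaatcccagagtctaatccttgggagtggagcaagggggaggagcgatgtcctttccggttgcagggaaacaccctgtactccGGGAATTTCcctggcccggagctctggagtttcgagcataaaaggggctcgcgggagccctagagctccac
Cxcl2: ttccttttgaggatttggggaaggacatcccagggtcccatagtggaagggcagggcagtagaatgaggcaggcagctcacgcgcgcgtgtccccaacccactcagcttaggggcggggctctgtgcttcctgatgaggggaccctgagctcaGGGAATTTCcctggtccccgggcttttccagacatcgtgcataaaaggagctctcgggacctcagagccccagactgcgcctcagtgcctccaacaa
Cxcl3: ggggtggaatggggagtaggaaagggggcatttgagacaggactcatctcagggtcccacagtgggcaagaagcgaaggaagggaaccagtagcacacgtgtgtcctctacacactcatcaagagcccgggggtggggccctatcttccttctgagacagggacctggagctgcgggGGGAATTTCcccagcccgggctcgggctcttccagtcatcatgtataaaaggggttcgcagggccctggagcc
The motif starts 71 bases before the annotated start of Cxcl1, 97 bases before that of Cxcl2 and 73 bases before that of Cxcl3. It also occurs on the opposite strand of the Cxcl9 window, so 4 of the 8 windows hold it, compared with 0.259% of all 32851 windows. The windows of Cxcl1, Cxcl2 and Cxcl3 share the stretch, so their matches are not independent and the shares are not a test. Only these exact letters were searched, so a window without them may hold other NF-kB type sites. The Cxcl10 window (chr5:92348890-92349139 before the start, minus strand, printed in the direction of the gene) is shown for an interferon-response type motif, GAAA followed after any 2 bases by a further GAAA, searched on both strands and again in capitals.
Cxcl10: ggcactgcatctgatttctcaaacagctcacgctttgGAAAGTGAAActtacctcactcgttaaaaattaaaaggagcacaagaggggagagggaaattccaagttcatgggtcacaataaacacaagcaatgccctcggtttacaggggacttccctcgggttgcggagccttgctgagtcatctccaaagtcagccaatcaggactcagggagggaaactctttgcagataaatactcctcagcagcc
This motif starts 213 bases before the annotated start of Cxcl10. It was found in the windows of Cxcl10 and Cxcl14 among the members and in 3.44% of all windows. The AHR core letters GCGTG were in the windows of Cxcl2, Cxcl10, Cxcl13 and Cxcl14, 4 of 8, and in 32.4% of all windows. These are matches of letters and not measured binding sites.

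After filtering and removal of doublets, 9294 LFD and 7879 HFD cells remained, with a median of 10213.5 and 12709 UMIs per cell. They formed 15 named clusters and 1 unnamed cluster led by haemoglobin and epididymal genes, and 11 cell types reached 100 cells in the LFD and the HFD library alike. The members and the other gene lists used below were kept out of the genes that made the clusters. 27 barcodes occurred in both libraries. Cell numbers differed between the libraries, for example in Wt1-positive stromal-like cells (3724 LFD and 1752 HFD), plasma cell-like cells (202 and 769) and adipocyte precursor (APC)-like cells (212 and 576). In the APC-like cells the 14 markers of the APC list, Pdgfra, Dcn and Dpp4 among them, summed to 66803 and 75502 CPM (UMIs per 1000000 UMIs of the cell type), with no marker of the list at 0. Levels are given as CPM of the summed UMIs of a cell type in a library. Beside them stands, where it matters, a free RNA estimate, the level expected from RNA outside cells. It takes the immunoglobulin UMIs of non-B cells, and the stromal UMIs of B and plasma cells, as coming from such RNA. That estimate was 18.5% of the library level in LFD APC-like cells and 3.28% in HFD APC-like cells, the widest gap between the diets within the 11 types. It can be too high: for Pf4 it was 26.3 CPM in LFD APC-like cells, where 4.02 CPM was measured. In HFD dendritic cell-like cells it was 11.2 CPM, with no Pf4 UMI measured.

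Cxcl1, an ELR ligand of CXCR2, was a stromal transcript. APC-like cells had 1472 CPM (1423 to 1524) in LFD, against 1372 (1342 to 1402) in HFD, and Wt1-positive stromal-like cells had 922 (913 to 931) and 1254 (1241 to 1267). Mesothelial-like cells had 703 and 883 CPM, and cycling Wt1-positive stromal-like cells 681 and 736. The order of these 4 types was the same in both libraries, and only mesothelial-like and cycling cells in LFD came close, with intervals of 689 to 716 and 669 to 694 that overlapped. Wt1-positive stromal-like cells contributed 62.2% of all Cxcl1 UMIs in LFD and 51.7% in HFD. Macrophage-like cells had 97.9 and 157 CPM, and endothelial-like cells 64.1 and 56.4. In B-like cells, 26.3 CPM in LFD and 28.8 in HFD stood beside free RNA estimates of 23.6 and 19.1.

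Cxcl2, the close neighbour of Cxcl1, had its highest level in neutrophil-like and macrophage-like cells, while Wt1-positive stromal-like cells held 49.5% of its UMIs in LFD and 45.7% in HFD and macrophage-like cells 13.3% and 18.5%. Neutrophil-like cells, 176 in LFD and 74 in HFD, held 8997 CPM (8634 to 9372) and 14866 CPM (14068 to 15697). Macrophage-like cells had 1597 CPM (1548 to 1648) in LFD and 1576 (1534 to 1618) in HFD, with 71.6% and 74.2% of cells holding a UMI. The group 2 innate lymphoid cell (ILC2)-like cells had 527 CPM (472 to 587) and 1135 CPM (1036 to 1241). The Wt1-positive stromal-like level was 328 and 442 CPM, the mesothelial-like level 280 and 257, and the cycling stromal level 220 and 222. The order was thus neutrophil-like, macrophage-like, ILC2-like and then stromal cells in both diets, and no interval of these 4 levels overlapped the next within a library. APC-like cells, which led for Cxcl1, stood lower for Cxcl2 at 211 CPM in LFD and 137 in HFD.

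Cxcl3, the rarest ELR member in stroma, also had its highest level in neutrophil-like cells. Neutrophil-like cells had 897 CPM (785 to 1021) in LFD and 561 (415 to 742) in HFD. Macrophage-like cells had 338 CPM (316 to 362) in LFD and 112 (101 to 124) in HFD, with 27.4% and 15.6% of cells holding a UMI. ILC2-like cells had 138 (111 to 170) and 153 (118 to 195). Macrophage-like cells were above ILC2-like cells in LFD, whereas in HFD the interval of macrophage-like cells overlapped that of ILC2-like cells. Of all Cxcl3 UMIs, macrophage-like cells held 32.3% in LFD and 34.1% in HFD, Wt1-positive stromal-like cells 18.1% and 20.04%, mesothelial-like cells 20.4% and 19.4%, and cycling Wt1-positive stromal-like cells 15.6% and 14.96%. Mesothelial-like cells had 36.2 CPM in LFD and 11.6 in HFD, and 63.0% and 51.8% of those UMIs came from the top 1% of cells.

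Cxcl5, the ELR ligand next to Cxcl3 on chromosome 5, was a transcript of Wt1-positive stroma. Wt1-positive stromal-like cells had 646 CPM (638 to 653) in LFD and 454 (447 to 462) in HFD. Cycling Wt1-positive stromal-like cells had 454 and 342 CPM, and mesothelial-like cells 353 and 368. APC-like cells had 525 CPM (495 to 555) in LFD, between Wt1-positive stromal-like and cycling Wt1-positive stromal-like cells. In HFD they had 61.9 (55.8 to 68.6), below all 3 types. The free RNA estimate for APC-like cells was 81.2 and 8.33 CPM, which left the LFD level well above it. Cxcl5 was near the estimate in neutrophil-like cells, with 39.0 CPM against 47.2 in LFD.

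**Figure D1:**
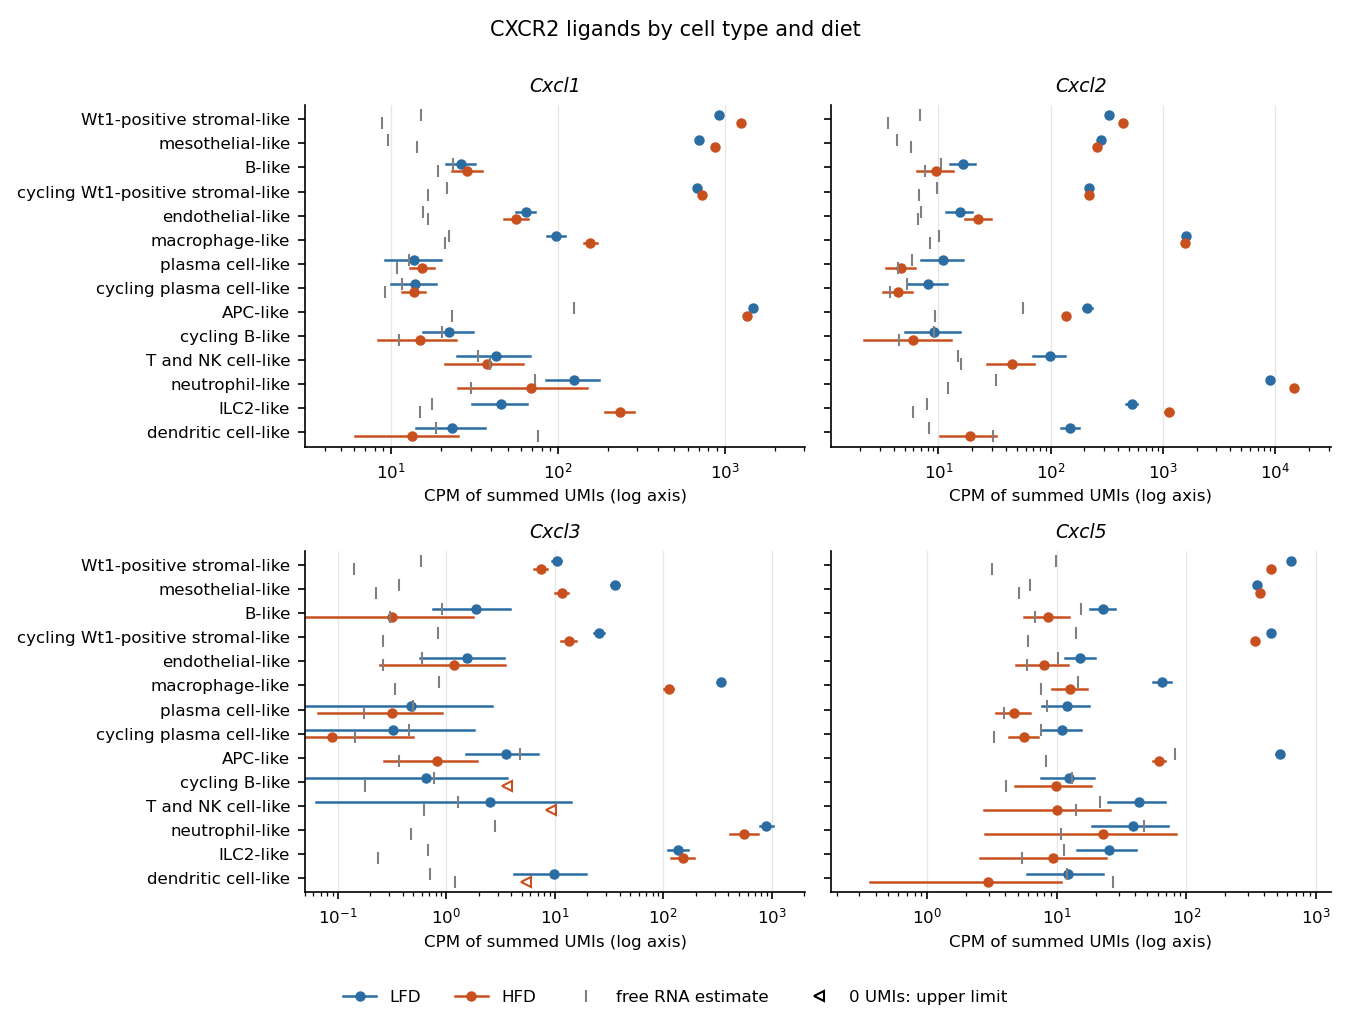
CPM of the ELR ligands Cxcl1, Cxcl2, Cxcl3 and Cxcl5 (log axis) in the 14 cell types that reached 50 cells in each library. Points are 1 library each (LFD blue, HFD orange), bars are exact Poisson 95% intervals, grey ticks are free RNA estimates and open triangles are upper limits for 0 UMIs. Cxcl1 and Cxcl5 peaked in stromal types, with Cxcl5 in APC-like cells at 525 CPM in LFD and 61.9 in HFD, and Cxcl2 and Cxcl3 in neutrophil-like cells.

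Cxcl9, the interferon-gamma-induced ligand of CXCR3, was highest in endothelial-like cells among the types with 50 cells in each library. Endothelial-like cells had 90.6 CPM (81.3 to 101) in LFD and 157 (142 to 173) in HFD, and contributed 68.1% and 72.7% of all Cxcl9 UMIs. Mural-like cells had 200 CPM (112 to 330) over 11 LFD cells, from 15 UMIs of which 11 were in 1 cell, and 80.4 (56.9 to 110) over 71 HFD cells. The endothelial list in them summed to 24032 and 42088 CPM. Wt1-positive stromal-like cells had 1.38 CPM in LFD and 1.1 in HFD. Cxcl10, its neighbour and fellow CXCR3 ligand, was spread over the stroma instead. Wt1-positive stromal-like cells had 133 CPM (130 to 137) and 129 (125 to 133), cycling ones 144 (138 to 150) and 130 (123 to 136), and mesothelial-like cells 110 and 123. APC-like cells had 120 CPM in LFD and 88.6 in HFD, and T and NK cell-like cells 101 and 80.6. Cxcl10 came from few cells: in Wt1-positive stromal-like cells the top 1% of cells held 25.8% of its UMIs in LFD and 18.5% in HFD. In endothelial-like cells, which led for Cxcl9, Cxcl10 was at 30.2 and 15.5 CPM.

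Cxcl12, the ligand of CXCR4 and ACKR3, was highest in APC-like cells. They had 2189 CPM (2128 to 2251) in LFD and 1212 (1185 to 1240) in HFD. Endothelial-like cells followed with 403 (383 to 423) and 601 (572 to 633). Wt1-positive stromal-like cells had 140 (136 to 143) and 41.0 (38.7 to 43.4), and cycling Wt1-positive stromal-like cells 71.7 and 32.9. The cycling type also had more of the mesothelial list, at 944 CPM in LFD and 1537 in HFD, against 472 and 818 in Wt1-positive stromal-like cells. APC-like cells gave 34.6% of all Cxcl12 UMIs in LFD and 66.8% in HFD, whereas the share of Wt1-positive stromal-like cells was 44.2% in LFD and 11.3% in HFD. Mesothelial-like cells, which share Wt1, were at 13.0 and 5.61 CPM.

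Cxcl13, the B cell attractant, was found in the same stromal types but in few cells. APC-like cells had 351 CPM (327 to 377) in LFD and 162 (152 to 173) in HFD, with a UMI in 21.2% and 6.42% of cells. In HFD, 80.0% of those UMIs were in the top 1% of cells, compared with 29.0% in LFD. Wt1-positive stromal-like cells had 91.1 CPM and 55.3 CPM, with 34.8% and 54.1% of UMIs in the top 1% of cells. Outside stroma the gene was near its free RNA estimate, for example at 0.953 CPM against 1.18 in LFD plasma cell-like cells.

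Cxcl14, a ligand of resting tissues, was highest in macrophage-like cells. The LFD level there was 146 CPM (132 to 162) and the HFD level 138 (126 to 151). The highest other level was that of cycling Wt1-positive stromal-like cells in HFD, which had 16.6 CPM (14.6 to 18.7) in LFD and 31.4 (28.4 to 34.7) in HFD, and mesothelial-like cells 18.7 and 24.9. Cxcl16, the CXCR6 ligand, was broad. Dendritic cell-like cells had 261 CPM (227 to 298) over 114 LFD cells and 200 (168 to 237) over 83 HFD cells. Macrophage-like cells had 240 (221 to 260) and 206 (191 to 222), which overlapped the dendritic cell-like intervals in both libraries. Mesothelial-like cells came next with 121 (115 to 126) and 119 (115 to 124), and Wt1-positive stromal-like cells had 81.1 and 96.2. Cxcl16 was evenly spread, with 5.29% to 6.48% of the UMIs of Wt1-positive stromal-like cells in the top 1% of cells.

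**Figure D2:**
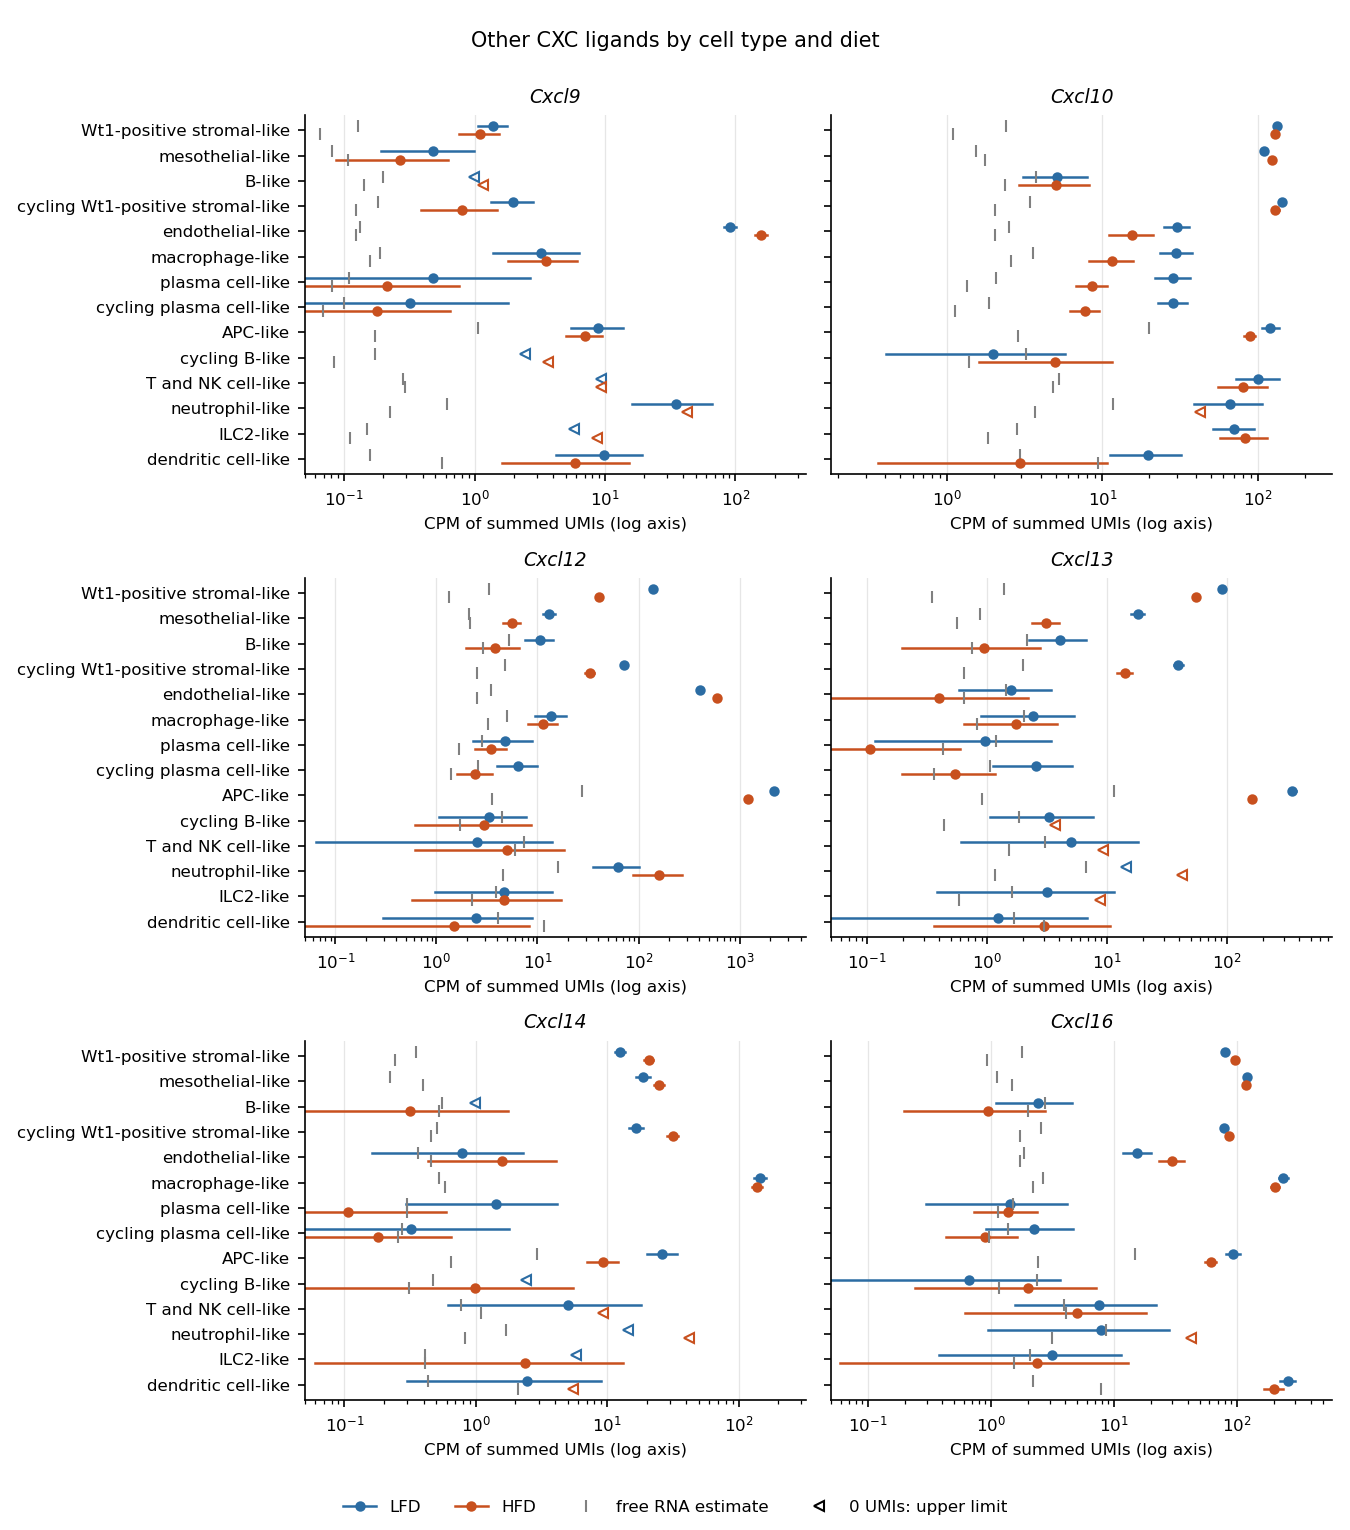
CPM of Cxcl9, Cxcl10, Cxcl12, Cxcl13, Cxcl14 and Cxcl16 (log axis) in the same 14 cell types, with points, bars, ticks and triangles as for the ELR ligands. The leading types were endothelial-like cells for Cxcl9 at 90.6 and 157 CPM, APC-like cells for Cxcl12 and Cxcl13, and macrophage-like cells for Cxcl14.

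The share of cells with a UMI was compared at equal depth, after thinning each cell to 2000 UMIs and leaving out shallower cells. Plasma cell-like cells served as background for all members but Cxcl10, which was above its free RNA estimate in them, with a median of 10266.5 UMIs in LFD and 11727 in HFD. For Cxcl12, 79.1% (72.9 to 84.5) of 206 LFD and 62.8% (58.6 to 66.8) of 553 HFD APC-like cells had a UMI, compared with 1.00% and 1.19% of plasma cell-like cells. Median depth in APC-like cells was 10242.5 and 10203.5 UMIs, and before thinning the shares were 92.9% and 86.1%. For Cxcl5 in the same cells, the shares were 38.4% (31.7 to 45.4) and 6.69% (4.75 to 9.11), against a background of 3.00% and 0.793%. For Cxcl9, 15.01% (11.9 to 18.6) of 473 LFD and 24.5% (20.6 to 28.9) of 436 HFD endothelial-like cells had a UMI, against 0 of 200, which allows a share of up to 1.83% (exact 95% limit), and 0.132% of plasma cell-like cells. Thinning left out 188 LFD and 169 HFD endothelial-like cells, whose type had a median of 3970 and 2940 UMIs, and the unthinned shares were 26.8% and 31.6%. Cxcl3 UMIs were in 22.7% (19.1 to 26.6) of LFD and 9.59% (7.13 to 12.6) of HFD macrophage-like cells. Each of these 4 pairs of shares differed beyond its counting intervals, in the direction of the CPM.

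**Figure D3:**
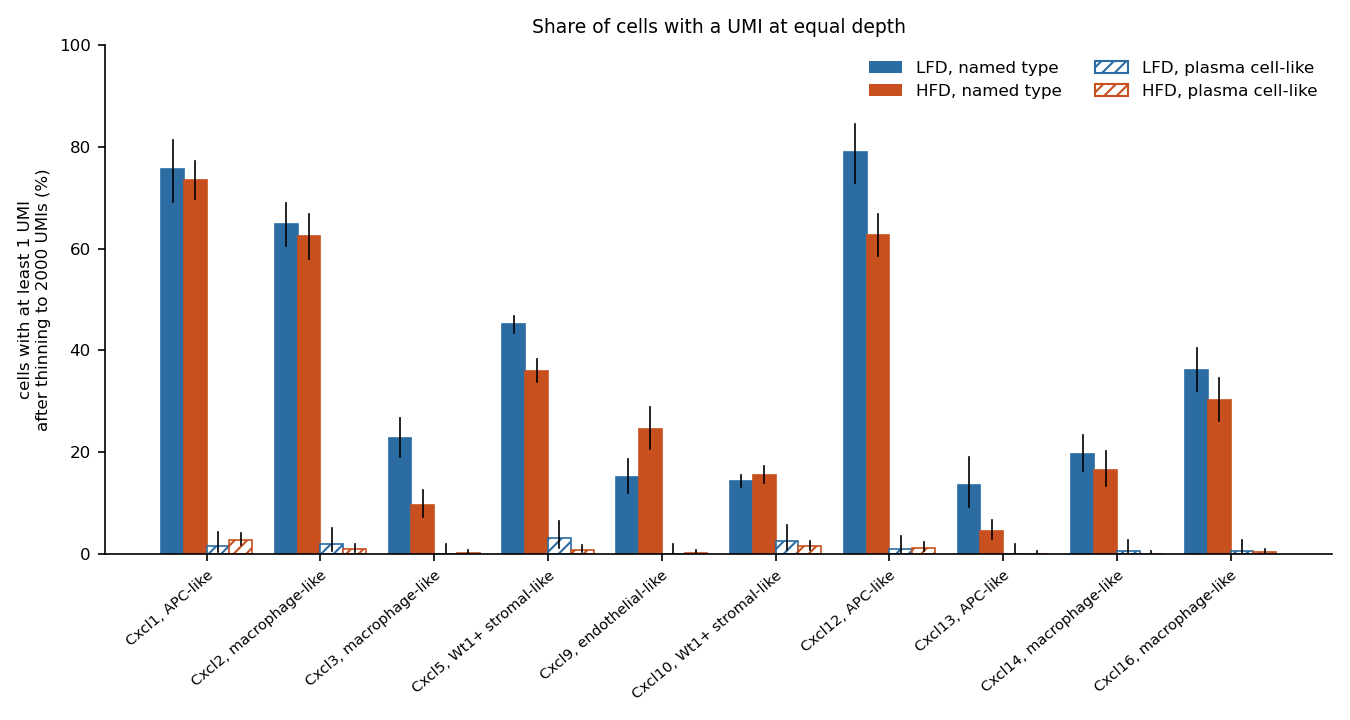
Percentage of cells with at least 1 UMI of each member after thinning to 2000 UMIs, in 1 named type per member (filled bars) and in plasma cell-like cells (hatched bars, not a background for Cxcl10), LFD in blue and HFD in orange, with exact binomial 95% intervals as lines. Cxcl12 in APC-like cells stood at 79.1% in LFD and 62.8% in HFD, while hatched bars stayed at or under 3.00%.

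Which ligands differed between the diets was read from the HFD to LFD ratio of CPM, with 2-fold as the limit and at least 20 counts over both libraries. Of 110 pairs of member and cell type, 78 had enough counts. In HFD, 2 pairs were at least 2-fold higher and 23 at least 2-fold lower, 25 in all. Over all genes and the same 11 types, 3.99% were higher and 3.1% lower. Of the 25 pairs, 17.0 had a level in the higher library of at least 5 times its free RNA estimate, and 8.0 did not. The members shared the library, so these pairs are not independent of each other.

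By cell type, APC-like cells had 3 of 9 members past the limit, all lower in HFD, against 9.53% of all genes. Wt1-positive stromal-like cells had 1 of 10 (7.3% of all genes), cycling Wt1-positive stromal-like cells 3 of 10 (5.18%) and mesothelial-like cells 3 of 9 (4.45%). Macrophage-like cells had 3 of 9 (6.36%) and endothelial-like cells none of 7 (8.31%). ILC2-like cells had 3 of 5 (13.3%) and T and NK cell-like cells 2 of 4 (8.52%). B-like cells had 2 of 5 (5.88%), plasma cell-like cells 3 of 5 (8.49%) and cycling plasma cell-like cells 2 of 5 (5.05%). The share of members was near that of all genes in Wt1-positive stromal-like cells and over it in 9 types. With 7 members tested, none past the limit in endothelial-like cells cannot be told from 8.31%. Each share rests on 4 to 10 members, so 1 pair changes it much. In B-like cells the pairs past the limit, Cxcl5 and Cxcl12, were at 1.48 and 2.01 times the free RNA estimate in LFD. Cxcl5 in LFD T and NK cell-like cells was at 1.99 times. The median ratio of the members was 0.647 in APC-like, 0.859 in macrophage-like, 0.88 in Wt1-positive stromal-like and 1.46 in endothelial-like cells, beside medians over all genes tested of 1.08, 1.06, 1.06 and 1.105.

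The lowest ratio was in APC-like cells. Cxcl5 was 8.47-fold lower in HFD (ratio 0.118, 0.105 to 0.133), from 1176 counts in LFD and 371 in HFD. Cxcl13 had a ratio of 0.463 (0.421 to 0.509) and, without the top 1% of cells, 0.131. Cxcl14 had a ratio of 0.355 (0.242 to 0.521), from 59 and 56 counts. Cxcl12 was at 0.554 (0.534 to 0.574), short of 2-fold, and Cxcl1 at 0.932 (0.895 to 0.97). The Wt1-positive stromal list, at 3837 CPM in LFD and 3115 in HFD Wt1-positive stromal-like cells, does not set that type apart from APC-like cells. In APC-like cells it summed to 5810 CPM in LFD and 5466 in HFD, and the mesothelial list to 212 and 213 CPM. Neutrophil markers were at 199 and 76.9 CPM, with 0 of 9 higher in HFD and Ly6g at 0, and B markers at 22.3 and 5.51 CPM, with 3 of 9 higher and Cd22 at 0. Markers of the plasma cell list were at 3416 and 2493 CPM, with 2 of 12 higher in HFD. The cycling list was at 88.3 and 38.2 CPM, with 0 of 8 higher and none at 0, the adipocyte list at 12.9 and 0.667, with 0 of 5 higher and Cidec and Lep at 0, and the ILC2 list at 56.6 and 132, with 6 of 10 higher and Il5 and Il17rb at 0. The part of these lists in the ratios was not tested. With the free RNA estimate subtracted, the Cxcl5 ratio was 0.121.

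In Wt1-positive stromal-like cells, Cxcl12 was 3.41-fold lower in HFD (ratio 0.294, 0.276 to 0.312). It was also lower in cycling cells (0.458, 0.408 to 0.514) and in mesothelial-like cells (0.432, 0.337 to 0.551). Cxcl13 followed, with 0.606 (0.572 to 0.642), 0.355 (0.298 to 0.421) and 0.172 (0.127 to 0.23) in the same 3 types. Cxcl1 (1.36, 1.34 to 1.38), Cxcl2 (1.35, 1.32 to 1.38) and Cxcl14 (1.66, 1.47 to 1.86) were higher in HFD Wt1-positive stromal-like cells but short of 2-fold. Markers of other types moved with these ratios, with none at 0. The mesothelial list was at 472 CPM in LFD and 818 in HFD Wt1-positive stromal-like cells, with 12 of 12 markers higher in HFD, and at 944 and 1537 in cycling ones, with 11 of 12 higher. The APC list was at 33864 and 27773 CPM in Wt1-positive stromal-like cells, with 7 of 14 higher in HFD, and the plasma cell list at 730 and 1153, with 10 of 12 higher. The plasma cell list was at 894 and 1853 CPM in cycling cells, with 8 of 12 higher, and at 567 and 1669 in mesothelial-like cells, with 11 of 12 higher. The endothelial list in mesothelial-like cells was at 292 and 517 CPM, with 5 of 10 higher. It was at 303 and 447 CPM in cycling cells, with 8 of 10 higher. In Wt1-positive stromal-like cells it was at 511 and 733 CPM, with 3 of 10 higher. The part of these genes in the ratios was not tested. The split of Wt1-positive cells depended on the integration of the libraries. Without integration the Wt1-positive stromal-like cluster held 2615 LFD and 104 HFD cells, and there the ratios were 0.602 for Cxcl12, 1.87 for Cxcl13 and 1.01 for Cxcl1 and Cxcl14. With the 3 Wt1-positive clusters pooled, the levels were 101 CPM in LFD and 28.5 in HFD for Cxcl12 (ratio 0.283, 0.269 to 0.298), 66.1 and 30.9 for Cxcl13 (0.468, 0.444 to 0.494) and 829 and 1035 for Cxcl1 (1.25, 1.24 to 1.26).

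Macrophage-like cells had lower Cxcl3 in HFD (ratio 0.332, 0.293 to 0.375), while Cxcl2 was level (0.987, 0.947 to 1.03). Summed neutrophil markers in these cells were 239 CPM in LFD and 69.5 in HFD, 0 of 9 higher in HFD and none at 0, and their part in the Cxcl3 ratio was not tested. Cxcl5 had a ratio of 0.193 (0.135 to 0.272), from 65.3 and 12.6 CPM, with the LFD level 4.5 times its free RNA estimate. Cxcl10 had a ratio of 0.384 (0.253 to 0.573), from 29.8 and 11.4 CPM, with the LFD level 8.37 times its estimate. Stromal markers moved with Cxcl5 here: the APC list was at 1176 and 409 CPM, with 4 of 14 markers higher in HFD, and the Wt1-positive stromal list at 257 and 91.8 CPM, with 3 of 10 higher and Tcf21 at 0. The cycling list was at 37.1 and 129 CPM, with 8 of 8 higher and none at 0, the plasma cell list at 880 and 2268, with 9 of 12 higher and none at 0, and the ILC2 list at 1882 and 2867, with 9 of 10 higher and Il5 at 0. The endothelial list was at 452 and 713 CPM, with 8 of 10 higher and none at 0. The dendritic cell list was at 3561 and 5120 CPM, with 8 of 11 higher and Clec9a and Xcr1 at 0. The part of these lists in the ratios was not tested. Cxcl14 (0.942, 0.82 to 1.08) and Cxcl16 (0.859, 0.769 to 0.959) were close to level.

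In endothelial-like cells, Cxcl9, Cxcl12 and Cxcl16 were higher in HFD by less than 2-fold. Cxcl9 had a ratio of 1.73 (1.5 to 2.01), Cxcl16 of 1.92 (1.35 to 2.75) and Cxcl12 of 1.49 (1.39 to 1.6). Taken as the mean of per-cell CPM, Cxcl12 was at 1.03 and Cxcl9 at 1.34. The median gene in this type had a log2 ratio of 0.14, and relative to it Cxcl9 was at 1.57, Cxcl16 at 1.74 and Cxcl12 at 1.35. Cxcl10 went the other way, at 0.513 (0.347 to 0.743), with 53.9% of its UMIs in the top 1% of cells in each library. Several marker lists moved with these ratios, with no marker at 0 unless named. The endothelial list was at 31713 CPM in LFD and 46602 in HFD (8 of 10 markers higher in HFD), the mural list at 79.1 and 231 (10 of 10), the macrophage list at 80.4 and 153 (11 of 11) and the plasma cell list at 654 and 1808 (9 of 12). The cycling list was at 742 and 334 CPM, with 0 of 8 higher, and the adipocyte list at 118 and 72.3, with 1 of 5 higher. The dendritic cell list was at 383 and 597 CPM, with 9 of 11 higher and Cd209a at 0. Their part in the ratios was not tested.

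ILC2-like cells had the only ratios at or above 2-fold. Cxcl1 was at 45.5 CPM in LFD and 235 in HFD, 5.16-fold higher (3.39 to 8.1), from 29 and 100 counts. Cxcl2 was 2.15-fold higher (1.87 to 2.48), from 336 and 483 counts. The largest count of Cxcl1 in 1 cell was 23 in HFD, and without the top 1% of cells the ratio was 4.58. The levels rest on 112 LFD and 101 HFD cells that clustered apart in this setting, and with a stricter filter, without doublet removal or without integration no ILC2-like type with 100 cells in each library was left. Macrophage markers in them summed to 10.98 and 18.8 CPM, with Adgre1, Csf1r, Mrc1 and Fcgr1 among those at 0, and APC markers to 967 and 555 CPM, with 7 of 14 higher in HFD and Pi16 at 0. Neutrophil markers were at 100 and 228 CPM, with 1 of 9 higher in HFD and Csf3r, Cxcr2, Mmp9 and Ly6g at 0. The plasma cell list was at 618 and 1572 CPM, with 6 of 12 higher and Derl3 and Tnfrsf17 at 0, the B list at 129 and 240, with 6 of 9 higher and Fcer2a and Cr2 at 0, and the dendritic cell list at 168 and 364, with 3 of 11 higher and Flt3, Cd209a, Clec9a, Xcr1 and Itgax at 0. The part of these lists in the ratios was not tested. Cxcl5 in these cells was at 25.1 and 9.4 CPM, from 16 and 4 counts, with an interval of 0.0911 to 1.16.

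In lymphoid and plasma cells most ratios past 2-fold were of levels under 5 times the free RNA estimate. Cxcl5 in B-like cells was at 22.6 CPM in LFD and 8.53 in HFD, beside estimates of 15.3 and 6.85. In those cells the neutrophil list was at 67.7 and 6.32 CPM, with 1 of 9 higher and none at 0, and the Wt1-positive stromal list at 139 and 70.5, with 2 of 10 higher and Tcf21 and Gata4 at 0, and their part in the ratio was not tested. Cxcl2 in plasma cell-like cells was at 10.96 and 4.65 CPM, beside 5.80 and 4.38, and without the top 1% of cells its ratio was 0.69. Neutrophil markers in those cells were at 71.9 CPM in LFD and 4.23 in HFD, with 3 of 9 higher in HFD, and their part in the ratio was not tested. Cxcl2 in T and NK cell-like cells was at 98.2 CPM in LFD, 6.58 times its free RNA estimate, and 45.4 in HFD, with a ratio of 0.462 (0.249 to 0.826), but 21 of the 39 LFD UMIs were in 1 cell, and the ratio without the top 1% of cells was 0.813. Taken as the mean of per-cell CPM, the direction of this ratio was reversed. In those cells the NK list was at 2698 CPM in LFD and 1199 in HFD, with 3 of 8 markers higher in HFD, the APC list at 1232 and 706, with 5 of 14 higher and Pi16 at 0, and the plasma cell list at 977 and 4462, with 11 of 12 higher, and their part in the ratio was not tested. Cxcl10 was at 28.6 CPM in LFD and 8.57 in HFD plasma cell-like cells (ratio 0.3, 0.212 to 0.426) beside estimates of 2.05 and 1.34. In cycling plasma cell-like cells its ratio was 0.271 (0.199 to 0.368). Of its LFD UMIs in plasma cell-like cells, 43.3% were in the top 1% of cells, and the ratio without those was 0.215.

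**Figure D4:**
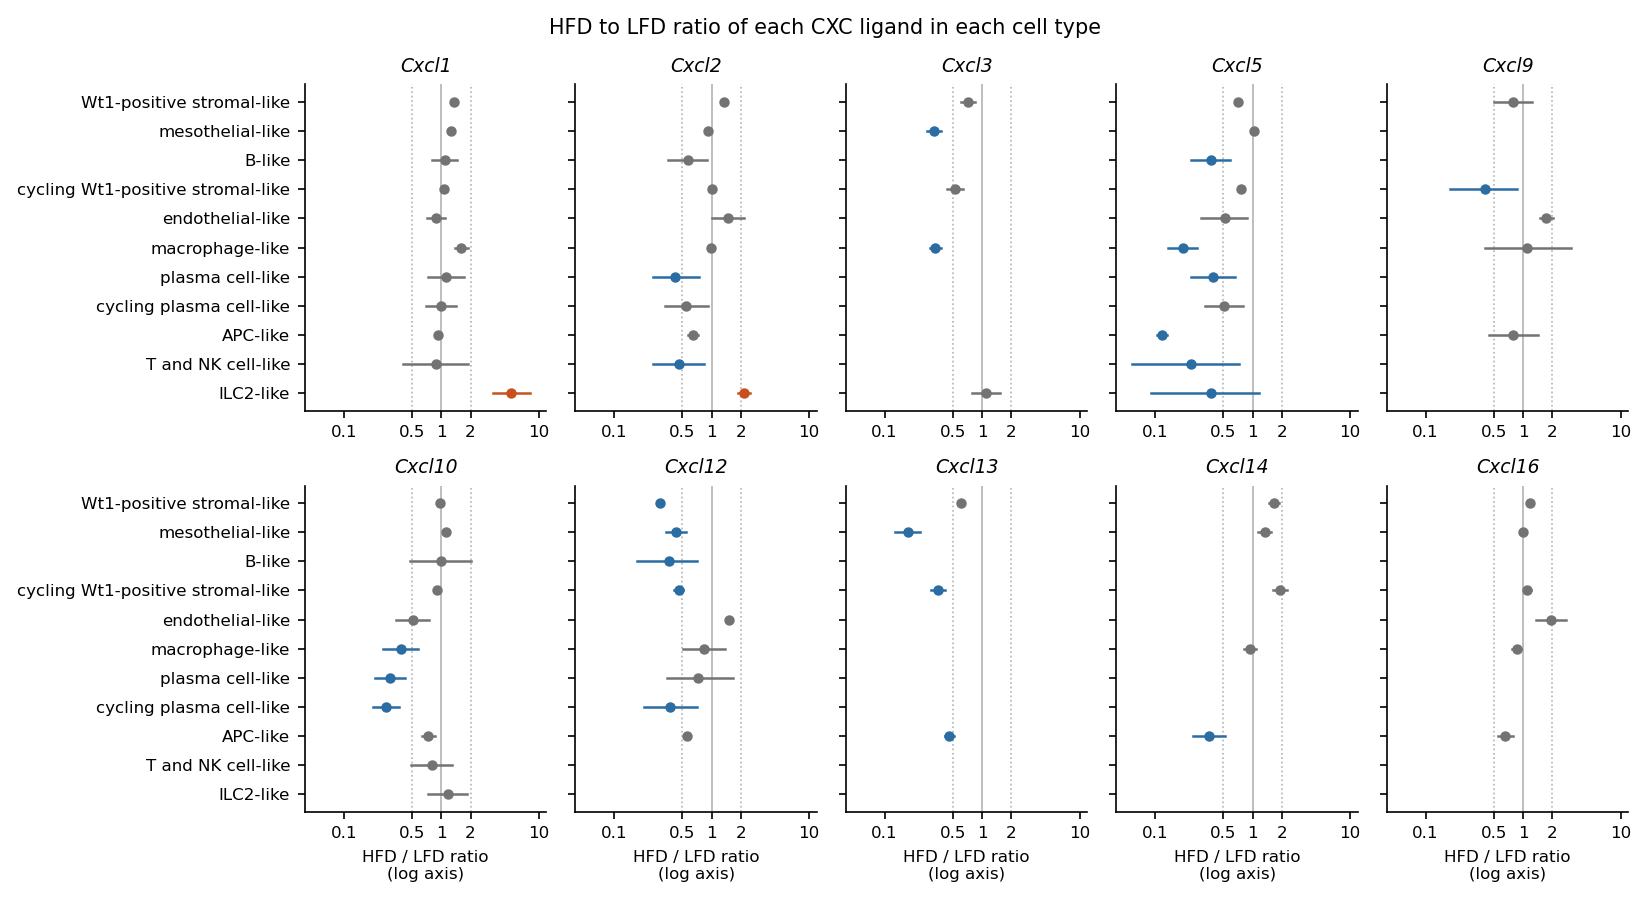
HFD to LFD ratio of CPM (log axis) for each member in the 11 cell types that reached 100 cells in each library. Points are ratios, bars exact 95% counting intervals, the solid line is 1 and dotted lines are 0.5 and 2, with orange for at least 2-fold higher in HFD, blue for at least 2-fold lower and grey otherwise; pairs under 20 counts are left out. The 2 orange points are Cxcl1 and Cxcl2 in ILC2-like cells, and the lowest blue point is Cxcl5 in APC-like cells at 0.118.

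At a finer resolution the Wt1-positive stromal-like cells fell into 2 clusters that differed in their ligands. The cluster led by Gas6, Itm2a and Ptn (2281 LFD and 997 HFD cells) had Cxcl13 at 148 CPM in LFD and 97.9 in HFD, and Cxcl10 at 187 and 161. The cluster led by Timp1, Serpinb2 and Crabp2 (1452 and 757 cells) had Cxcl13 at 29.1 and 10.7 CPM and Cxcl10 at 76.7 and 96.0. Cxcl3 went the other way, at 1.88 and 3.12 CPM in the first cluster and 19.9 and 12.0 in the second. Cxcl5 was higher in the second cluster in LFD, at 750 against 552 CPM, and not in HFD, at 442 against 462. Cxcl12 was higher in LFD than in HFD in each of them, at 163 and 42.2 CPM in the first and 114 and 39.5 in the second. Among cycling cells, the cluster with G2 and M phase genes (Cenpf, Cdc20, Hmmr) had Cxcl12 at 101 and 49.0 CPM, and the cluster with S phase genes (Tk1, Pclaf, Uhrf1) 43.1 and 17.4.

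Within a cell type the ligand counts of thinned cells were only weakly correlated from cell to cell. Over thinned cells, Spearman's rho of Cxcl2 and Cxcl3 in LFD macrophage-like cells was 0.326 (498 cells), and that of Cxcl1 and Cxcl2 in Wt1-positive stromal-like cells 0.164 in LFD and 0.209 in HFD. Cxcl1 and Cxcl12 in APC-like cells had 0.237 over 206 LFD and 0.06 over 553 HFD cells. Thinning leaves few UMIs of a ligand in a cell, and this counting noise pulls rho towards 0. How closely the ligands are related in a cell can therefore not be read from these values. Cells of 1 library share its depth and free RNA, and these values are a description. Over the 22 points made of 11 types and 2 libraries, the genes with a pattern most like that of a member among 9974 genes, by Pearson's r of log2(CPM + 1), were Il6 for Cxcl1 (0.987), Itgav for Cxcl2 (0.934), Rnf128 for Cxcl3 (0.89), Saa3 for Cxcl5 (0.971) and Flt1 for Cxcl9 (0.981). For Cxcl10 it was Ssbp2 (0.9), for Cxcl12 Col15a1 (0.98), for Cxcl13 Spon1 (0.973), for Cxcl14 Lrp12 (0.958) and for Cxcl16 Hebp1 (0.971). Cxcl2 was among the 3 genes most like Cxcl3 (0.88). Both libraries of a type share the cell type, so these points are not independent.

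The 6 Cxcr genes were highest in immune cells, and Ackr1 and Ackr3 in endothelial-like and stromal types. Cxcr2, the receptor of the ELR ligands, was at 507 CPM (424 to 602) in LFD and 447 (318 to 611) in HFD neutrophil-like cells, which are also the cells highest in Cxcl2. Cxcr3 was at 126 and 78.1 CPM in T and NK cell-like cells. Cxcr4 had 95.1 and 91.2 CPM in macrophage-like cells and 81.9 (50.7 to 125) and 218 (131 to 340) in neutrophil-like cells. Cxcr5 was at 116 and 129 CPM in B-like cells, and Cxcr6 at 557 and 830 in ILC2-like cells and 265 and 202 in T and NK cell-like cells. Of the 8 receptors listed, 1 to 3 had enough counts in a type. Cxcr4 was at least 2-fold higher in HFD in B-like (2.27, 1.55 to 3.36), endothelial-like (2.74, 1.89 to 3.99), plasma cell-like (2.51, 1.51 to 4.49) and T and NK cell-like cells (4.17, 1.67 to 12.4, from 6 and 25 counts). In those types 5.88%, 8.31%, 8.49% and 8.52% of all genes were past 2-fold in either direction. Cxcr4 was short of 2-fold in macrophage-like (0.959, 0.807 to 1.14), cycling plasma cell-like (1.83, 1.37 to 2.48) and Wt1-positive stromal-like cells (1.62, 0.68 to 3.88). The NK and plasma cell lists of T and NK cell-like cells, given above for Cxcl2, moved as well, and their part in the Cxcr4 ratio was not tested. Ackr3, which removes Cxcl12, was 4.81-fold higher (3.76 to 6.26) in HFD APC-like cells, at 30.3 CPM in LFD and 146 in HFD. It was lower in HFD in Wt1-positive stromal-like (0.357, 0.302 to 0.421), cycling (0.459, 0.386 to 0.544) and mesothelial-like cells (0.421, 0.369 to 0.48). Ackr1, a scavenging receptor, was lower in HFD in Wt1-positive stromal-like cells (0.338, 0.207 to 0.53, from 106 and 24 counts) and higher in mesothelial-like cells (2.73, 1.21 to 6.94, from 8 and 28 counts). Ackr3 and Cxcl12 were thus both lower in HFD in the Wt1-positive types, while in APC-like cells Ackr3 was higher and the Cxcl12 ratio of 0.554 stayed short of 2-fold.

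**Figure D5:**
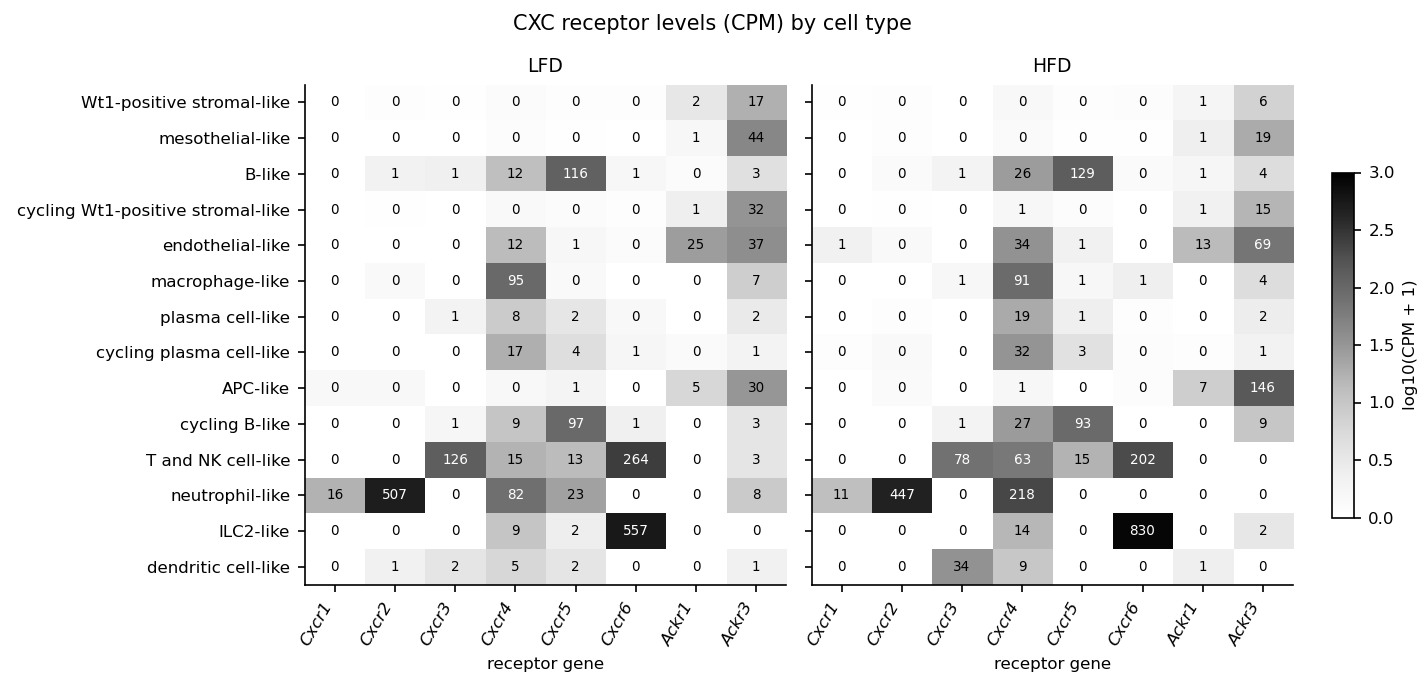
CPM of the 8 CXC receptor genes in 14 cell types, LFD left and HFD right, with the CPM printed in each field and shading by log10(CPM + 1). Cxcr2 was read in neutrophil-like cells, Cxcr5 in B-like cells and Cxcr6 in ILC2-like and T and NK cell-like cells, and Ackr3 in APC-like cells was at 30.3 CPM in LFD and 146 in HFD.

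Of the other CXC ligands, Pf4 and Ppbp had enough counts for a ratio. Pf4, a platelet and macrophage chemokine, was at 5433 CPM in LFD and 3129 in HFD macrophage-like cells, and Ppbp, an ELR ligand, at 288 and 132 CPM (ratio 0.457, 0.405 to 0.515). Ppbp in Wt1-positive stromal-like cells had a ratio of 0.454 with an interval of 0.165 to 1.09, from 23 and 7 counts. Pf4 had a ratio of 0.392 in B-like cells, from 21 and 7 counts. In cycling Wt1-positive stromal-like cells its ratio was 0.483, from 105 and 40 counts, but 38 of the LFD UMIs were in 1 cell, and 52.4% of them in the top 1% of cells. The NF-kB list, of 18 genes that feed back on or follow NF-kB, had 6 of 15 with enough counts higher in HFD ILC2-like cells, namely Nfkbid, Nfkbiz, Rel, Tnfaip3, Zc3h12a and Il6, with none lower, against 13.3% of all genes in either direction. The median ratio of the list there was 1.65, beside 1.04 for all genes. The ratios there ran from 2.13 for Rel to 5.62 for Il6. In Wt1-positive stromal-like cells it was 1 of 18 (Nfkbid, 2.62, against 7.3% of all genes) and in APC-like cells 0 of 17 (9.53%). Lower in HFD were 3 of 17 in plasma cell-like cells (Relb, 0.327, Tnfaip2, 0.444, and Icam1, 0.487), against 8.49% of all genes, and 2 of 17 in cycling plasma cell-like cells (Nfkbie, 0.493, and Tnfaip2, 0.316), against 5.05%. Tnfaip3 was higher in T and NK cell-like (2.05) and Zc3h12a in endothelial-like cells (2.11). Ccl2, a CC chemokine of that list, was higher in HFD in endothelial-like (2.64, 2.21 to 3.15) and macrophage-like cells (2.03, 1.85 to 2.24).

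The interferon-induced list, of 17 genes, had 4 of 17 lower in HFD Wt1-positive stromal-like cells (Iigp1, Ifit1, Ifit3 and Socs1, with ratios of 0.499, 0.288, 0.24 and 0.438) and none higher, with a median ratio of 0.874, beside 7.3% of all genes called in either direction. Cxcl10 in these cells had a ratio of 0.966 (0.928 to 1.01). Ifit1 and Ifit3, antiviral proteins, were lower in mesothelial-like cells as well, with ratios of 0.365 and 0.331. In cycling Wt1-positive stromal-like cells Ifit1 (0.328), Ifit3 (0.274) and Isg15 (0.479) were lower, and in macrophage-like cells Ifit1 (0.194), Isg15 (0.364) and Irf7 (0.388). APC-like cells had lower Iigp1 (0.344) and Isg15 (0.44) and higher Irgm1 (2.002). Isg15 was also lower in plasma cell-like cells (0.337), Gbp4 (0.456) and Socs1 (0.389) in cycling plasma cell-like cells, and in ILC2-like cells Igtp was lower (0.236) and Irgm1 higher (2.62), from 22 counts each over both libraries. In endothelial-like cells, 1 of 17 was at least 2-fold higher (Gbp5, 2.35, 1.42 to 3.97, against 8.31% of all genes), and the median ratio of the list was 1.3 beside 1.105 for all genes. The list of dissociation and immediate early genes, 16 in all, marks stress during digestion and sorting. It had 4 of 16 higher in HFD endothelial-like cells (Egr1, Hspa1a, Hspa1b and Btg2, with ratios of 2.065, 2.05, 5.22 and 2.03), with a median ratio of 1.52, against 8.31% of all genes. In ILC2-like cells 2 of 14 were higher (Zfp36, 2.86, and Btg2, 2.54) and 1 lower (Ier3, 0.355), against 13.3%. In plasma cell-like cells 3 of 15 were lower (Atf3, 0.34, Dusp1, 0.475, and Hsp90aa1, 0.475), against 8.49%. Hspa1b, a heat shock protein, was also higher in Wt1-positive stromal-like (3.9), mesothelial-like (3.53), cycling Wt1-positive stromal-like (3.49), APC-like (2.32) and, from 1 and 23 counts, cycling plasma cell-like cells (6.37), where Hspa1a was at 2.17. Btg2 was higher in B-like cells (2.04) and Ier3 lower in T and NK cell-like cells (0.286). Its median ratio was 0.859 in Wt1-positive stromal-like and 1.02 in APC-like cells. The part of these genes in the ratios of the members was not tested.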

How the data were processed

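eYFP+ cells from 1 LFD and 1 HFD library were analysed (10x Genomics 3′ v3 chemistry). The deposited files hold unnormalized UMI counts for every gene in each barcode, which the authors made with Cell Ranger 4.0.0 per the file headers. The submitters' processing notes also list Seurat 4.1.0, bcl2fastq 2.17.1.14, STAR and the build mm10. The library totals were 114311020 UMIs (LFD) and 119498750 (HFD).

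The filter stated by the authors was applied (500 to 40000 UMIs, at least 100 genes, under 12.5% mitochondrial UMIs). Scrublet doublet scores were computed per library and the highest scoring cells removed at 0.8% per 1000 barcodes (922 LFD and 658 HFD cells). Clusters came from Seurat 5.3.0 anchors (R 4.3.3, 2000 variable genes without the listed genes, 30 principal components, resolution 0.3) and were named from marker lists, so names are rebuilt and may differ from those of the study. All 10 members are named in the text, as are listed genes at 2-fold or more and the genes most alike in pattern among those reaching 20 CPM. The members, lists and markers were chosen with earlier results of these data known.

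Counts were summed per cell type and library. CPM had exact Poisson, ratios exact conditional binomial and shares exact Clopper-Pearson 95% intervals. UMIs remove PCR copies, and intervals cover counting error only, not the spread between mice. A count of 0 was set to 3 counts for a ratio. Ratios needed 100 cells in both libraries, and the ratio code was tested on simulated counts. Gene positions came from GENCODE M21 and promoters from RefSeq. Alternatives for filter, doublets, integration, resolution, scaling, summary, free RNA, fold, count minimum and thinning were tried, and 2 more (pooling of the Wt1-positive clusters, and leaving out the top 1% of cells) were chosen after seeing the data.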

Additional observations from a re-analysis of the deposited data

Results flagged for a closer look

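For 5 members the HFD to LFD ratio was at least 1.3-fold above 1 in 1 cell type and at least 1.3-fold below 1 in another, with counting intervals off 1 on both sides. With 1 library per diet the difference between cell types was not tested in any of these cases. The values below divide the higher ratio by the lower.

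Cxcl2 had a ratio of 2.15 in ILC2-like and 0.425 in plasma cell-like cells, a quotient of 5.07, and the latter level was close to its free RNA estimate. Cxcl9 had 1.73 in endothelial-like and 0.409 in cycling Wt1-positive stromal-like cells, a quotient of 4.23, the latter from 31 and 10 counts with most of them in the top 1% of cells (87.1% in LFD and 90.0% in HFD). Cxcl12 had 1.49 in endothelial-like and 0.294 in Wt1-positive stromal-like cells, a quotient of 5.08. The Wt1-positive stromal-like ratio was 0.602 without integration, and the endothelial-like ratio was 1.03 as the mean of per-cell CPM. Cxcl14 had 1.9 in cycling Wt1-positive stromal-like and 0.355 in APC-like cells, a quotient of 5.34. Cxcl16 had 1.92 in endothelial-like and 0.656 in APC-like cells, a quotient of 2.93.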

How the results depend on the processing

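The counts of members past 2-fold were 2 higher and 23 lower in HFD. The higher count was 0 with the stricter cell filter and 0 without doublet removal, where no ILC2-like type with 100 cells in each library was left, 1 without integration (Cxcl2 in endothelial-like cells, ratio 2.33), 1 for the mean of per-cell CPM, 7 with free RNA subtracted, 7 at 1.5-fold and 6 without a filter on low counts. The lower count was 36 without that filter and between 16 and 33 otherwise. Of the 25 ratios past 2-fold, 1 reversed: Cxcl2 in T and NK cell-like cells was at 1.53 as the mean of per-cell CPM. The others kept their direction in each alternative in which they could be recomputed. Some fell short of 2-fold: those still past it were 18 of 19 with the stricter filter, 18 of 20 without doublet removal, 16 of 17 without integration, 23 of 25 for the mean of per-cell CPM, 23 of 25 without the top 1% of cells (Cxcl2 in plasma cell-like and in T and NK cell-like cells were lost) and 5 of 7 with the Wt1-positive clusters pooled, where Cxcl3 was at 0.534 (0.322 in mesothelial-like cells) and Cxcl9 at 0.59 (0.409 in cycling cells). The leading type in both libraries was kept for 7 to 9 of the 10 members. Without thinning, the shares of APC-like cells with a Cxcl12 UMI were 92.9% in LFD and 86.1% in HFD, and those of endothelial-like cells with a Cxcl9 UMI 26.8% and 31.6%. Apart from the loss of types, the causes were not tested. Scaling by the median gene gave 2 higher and 26 lower. Types under 100 cells gave no ratio, and levels near the free RNA estimate limit what can be read in B and plasma cells. No library could be left out, since each diet had 1. No paired analysis was possible because each diet had 1 library and no test was made.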
